A study of Mus musculus with 54 samples.

Results

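Transcripts for the nuclear-encoded subunits of the respiratory chain and ATP synthase were followed in mouse liver. Genes were chosen by symbol: the Nduf, Sdh, Uqcr, Cox4 to Cox8 and Atp5 families without pseudogenes, with a mean of at least 1 FPKM (fragments per kilobase of transcript, scaled to mapped library size) over all livers. Of 82 symbols that matched, 77 were kept, out of 24346 symbols in the table. By symbol they fell into 37 genes of complex I, 4 of complex II, 8 of complex III, 11 of complex IV and 17 of complex V, the ATP synthase. The 5 symbols left out were Cox6a2, Cox6b2, Cox7b2, Cox8b and Cox8c. Nearest to the minimum from above were Ndufa4l2 at 2.41 FPKM and Atp5s at 3.42. Nearest from below were Cox6b2 at 0.262 and Cox8b at 0.182.

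Complexes I to IV sit in the inner mitochondrial membrane and pass electrons from NADH and succinate through ubiquinone and cytochrome c to oxygen. The proton gradient that complexes I, III and IV build drives the ATP synthase. Most subunits are nuclear genes, while some are encoded by the mitochondrial genome and were not analysed here. Liver uses this machinery to burn fatty acids and amino acids and to pay for glucose and urea synthesis, and its fuel supply changes with feeding and fasting over the day.

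Whole livers came from WT mice, which have the clock gene Bmal1 in all tissues, from KO mice, in which a floxed STOP disrupts Bmal1, and from RE mice, in which Syt10-Cre restores it in the suprachiasmatic nucleus, which holds the master clock of the brain. RE livers thus share the STOP allele with KO livers. Each genotype was sampled at 6 times 4 h apart (ZT0 to ZT20, where ZT counts hours from the start of light), and 3 livers per time gave 18 groups and 54 libraries of total RNA. Age, sex, diet and any drug treatment were not given in the sources used here. Whole liver mixes cell types, so fewer cells of a type and less RNA per cell cannot be told apart.

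Each liver carries the number of its data column (0 to 2) after its genotype and time. Total FPKM ran from 572995 to 751399 per library, and the 77 genes held 3.73% to 4.83% of it (median 4.28%). Arntl, the table's symbol for Bmal1, ranged from 0.202 to 10.3 FPKM in WT, 9.76 to 14.2 in KO and 7.60 to 15.5 in RE. These values cover the whole gene and check neither the STOP allele nor the protein. Of 6 hepatocyte markers, Alb was listed at 0 in all 18 WT livers, 1 KO liver and 2 RE livers, with 13663.4 FPKM as the KO median, so its zeros cannot be read as absence. The other 5 summed to a median of 24189 FPKM in WT, with 20038.4 for KO and 24377.7 for RE. The part of these values in the differences between genotypes was not tested. None of the 77 genes was listed at 0 in any liver.

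Of the libraries, 3 stood apart in the mean of the 77 genes or in a transcript-length score: KO ZT8 liver 1, RE ZT0 liver 0 and RE ZT8 liver 0. The score is the mean centred log2 level of 846 other genes with transcripts under 1000 bases minus that of 340 with at least 3000 bases, and it is positive where short transcripts read high. It was -0.37 in KO ZT8 liver 1, the lowest of all livers, and 0.37 in RE ZT8 liver 0, the highest. Mean scores were -0.05 in WT, 0.02 in KO and 0.03 in RE, with SDs of 0.10, 0.14 and 0.15 over 18 livers each. Counts that these libraries move by over 1.5 times are given below with and without them.

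The genes were among the most abundant transcripts of the liver. Of the 77, 69 had a mean of at least 100 FPKM and 48 stood among the 500 highest genes of the table. FPKM is scaled by transcript length, but the quantifier and its gene models are not given, so comparisons between genes are approximate. The highest gene of the set, Atp5k, has a median transcript of only 321.5 bases. The median gene of complex I, at 196 FPKM, lay below that of complex III at 612.4, complex IV at 491.4 and complex V at 431.3. Complex II was the most even set: Sdhb, the iron-sulfur subunit, had 248.2 FPKM, the membrane anchors Sdhd and Sdhc had 242.5 and 228.3, and the flavoprotein Sdha had 217.

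Each complex had its own leading genes. Atp5k, which encodes subunit e in the membrane part of ATP synthase, led with a mean of 1405.5 FPKM (1046.4 to 1756.8 over the 54 livers). Ndufa4, first described in complex I and now assigned to complex IV, had 1314.1. Complex III was led by Uqcrq at 1069, followed by Uqcr11, Uqcrh, Uqcr10 and Uqcrb. Cox6c at 953.3 led complex IV, before Cox6b1, Cox7c, Cox6a1 and Cox8a. Behind Atp5k in complex V came Atp5g3 at 1014.3, Atp5e, Atp5j2 and Atp5b, the catalytic beta subunit. Ndufa3 at 652.1, Ndufb9, Ndufa6 and Ndufs6 followed Ndufa4 among the Nduf genes.

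Only 5 of the 77 genes had a mean under 50 FPKM: Ndufa11, Atp5sl, Cox7a1, Atp5s and Ndufa4l2. Atp5sl, also named Dmac2, is an assembly factor of complex I in spite of its symbol, and Atp5s encodes factor B of ATP synthase. Isoform sets were lopsided. The liver forms Cox6a1 (668 FPKM) and Cox7a2 (438.1) exceeded the heart and muscle forms Cox6a2 (0.109) and Cox7a1 (4.90). Cox8a had 654.4 FPKM against 0.182 for Cox8b, and Ndufa4 had 1314.1 against 2.41 for Ndufa4l2. Cox6b1 (902.1) and Cox7b (243.4) stood against Cox6b2 (0.262) and Cox7b2 (0.00293), which are known from testis. The 3 genes for the identical c subunit of the ATP synthase ring were all high: Atp5g3 at 1014.3 FPKM, Atp5g1 at 395.3 and Atp5g2 at 392.1.

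**Figure D1:**
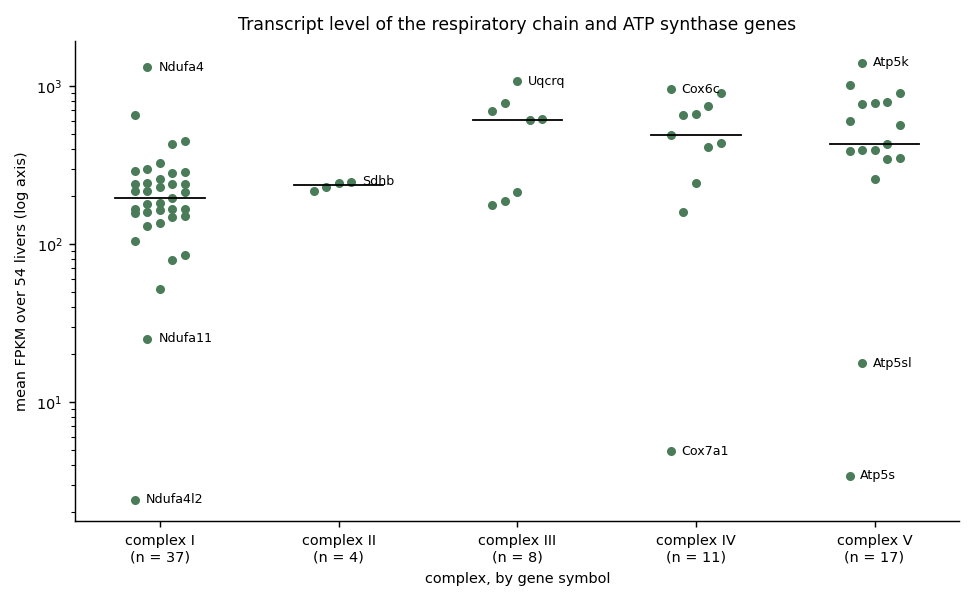
Mean FPKM over 54 livers (log axis) of the 77 genes, 1 point per gene, by complex; horizontal lines mark the median gene of each complex. The highest gene of each complex and all 5 genes under 50 FPKM are labelled; most points lie above 100 FPKM.

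Between livers of the same group, the genes moved together. Over the deviations of 54 libraries from their group means, Pearson's r between members had a median of 0.687 over 2926 pairs, against 0.0994 over pairs of other genes with at least 50 FPKM. Pairs of the same complex had a median of 0.712 and pairs from different complexes 0.673. Members of 1 library share its RNA, depth and scaling, so these values describe the libraries. Sdha (median r with the others -0.27) and Ndufs1 (-0.24) went the other way, Atp5s was near 0 (0.04), and Atp5j2 had the highest median at 0.86. The smallest SDs within groups were those of Sdha (0.08, log2), Atp5a1 (0.08) and Atp5b (0.08). The largest were those of Cox7a1 (0.49), Ndufa4l2 (0.30) and Ndufb7 (0.22).

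Deviations of the mean of the 77 genes were set against those of the transcript-length score. Over 54 livers Pearson's r was 0.86 and Spearman's rho 0.83, and over 51 livers, without the 3 that stood apart, 0.79 and 0.80. Both measures come from the same library and share its scaling. Most of the 77 genes have median transcripts under 1000 bases, the bound of the short set, so both measures follow short transcripts. The correlation therefore cannot set these genes apart from other short ones. The signs were opposite in 9 livers. KO ZT8 liver 1 lay 0.29 below its group in the mean of the 77 genes and 0.31 below it in the score, on the log2 scale. RE ZT0 liver 0 lay 0.27 below its group in the mean and 0.28 below it in the score. RE ZT8 liver 0 lay 0.14 above its group in the mean and 0.22 above it in the score. Whether the score reflects RNA handling or biology was not tested.

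**Figure D2:**
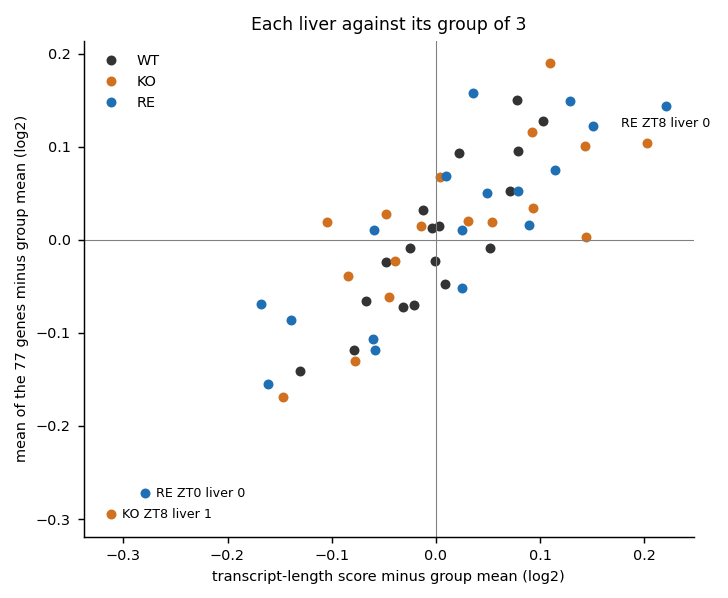
Each of the 54 livers by the deviation of its transcript-length score (x axis, log2) and of the mean of the 77 genes (y axis, log2) from its group of 3, coloured by genotype. Both deviations have the same sign in 45 of 54 livers and opposite signs in 9; KO ZT8 liver 1 and RE ZT0 liver 0 lie farthest down.

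Promoters were read as a description of the genes. Whether their motifs relate to the movement of the genes between livers was not tested. The 250 bases before the RefSeq transcript start (GRCm38.p6) are shown for 6 genes on which the results below turn: Ndufs5 and Ndufa12, both higher in KO and RE, Cox7a1, lower in both, and Uqcrc1, Cox6a1 and Atp5sl (listed as Dmac2), rhythmic in RE. Capitals mark matches, within the bases shown, to the motifs named in the next paragraph. Uqcrc1 has an NRF1 match and Atp5sl a YY1 match outside the bases shown, and both are counted there.
Ndufs5, chr4:123718187-123718436, minus strand: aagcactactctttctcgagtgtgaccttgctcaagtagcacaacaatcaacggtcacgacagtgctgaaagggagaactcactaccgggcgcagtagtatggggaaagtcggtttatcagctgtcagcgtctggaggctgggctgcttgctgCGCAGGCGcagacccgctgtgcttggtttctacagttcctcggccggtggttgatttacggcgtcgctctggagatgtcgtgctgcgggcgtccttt
Ndufa12, chr10:94198785-94199034, plus strand: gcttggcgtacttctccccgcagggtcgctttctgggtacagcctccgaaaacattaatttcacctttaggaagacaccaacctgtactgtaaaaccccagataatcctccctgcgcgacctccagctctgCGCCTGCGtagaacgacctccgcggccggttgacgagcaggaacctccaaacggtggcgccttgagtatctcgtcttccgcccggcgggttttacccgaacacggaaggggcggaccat
Cox7a1, chr7:30183921-30184170, plus strand: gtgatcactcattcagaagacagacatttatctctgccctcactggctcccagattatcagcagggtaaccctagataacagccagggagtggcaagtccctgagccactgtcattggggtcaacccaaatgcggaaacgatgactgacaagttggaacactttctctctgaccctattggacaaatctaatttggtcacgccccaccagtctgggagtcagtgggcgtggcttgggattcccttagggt
Uqcrc1, chr9:108936398-108936647, plus strand: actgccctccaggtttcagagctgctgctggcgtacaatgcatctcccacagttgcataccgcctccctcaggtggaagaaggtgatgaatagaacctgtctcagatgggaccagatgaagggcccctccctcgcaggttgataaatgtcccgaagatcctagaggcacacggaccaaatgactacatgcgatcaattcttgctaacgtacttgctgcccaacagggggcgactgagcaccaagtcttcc
Cox6a1, chr5:115348959-115349208, minus strand: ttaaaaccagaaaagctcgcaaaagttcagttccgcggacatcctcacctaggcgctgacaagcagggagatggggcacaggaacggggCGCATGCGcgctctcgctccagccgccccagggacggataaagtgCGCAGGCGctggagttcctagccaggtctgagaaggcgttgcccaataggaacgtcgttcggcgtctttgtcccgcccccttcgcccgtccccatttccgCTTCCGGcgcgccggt
Atp5sl, chr7:25619164-25619413, plus strand: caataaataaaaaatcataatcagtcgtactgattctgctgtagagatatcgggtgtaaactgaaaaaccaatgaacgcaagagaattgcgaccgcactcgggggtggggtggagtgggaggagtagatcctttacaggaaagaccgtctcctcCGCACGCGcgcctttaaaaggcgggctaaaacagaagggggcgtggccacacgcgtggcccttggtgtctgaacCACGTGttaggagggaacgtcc

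The motifs, searched on both strands, were those of the mitochondrial gene regulators NRF1 (CGCNTGCG), GABP (the ETS site CCGGAAG) and YY1 (AANATGGC), the clock E-box (CACGTG), the ROR element (TAGGTCA), the D-box (TTATGTAA) and the ERR site (TCAAGGTCA). The window searched was 300 bases, of which 50 follow the start, at all starts of a gene, and 64 of the 77 genes matched a RefSeq promoter. An NRF1 motif was in 26 of 64 (40.6%), against 12.5% of 17491 protein-coding genes. YY1 motifs were in 17 (26.6%, against 7.46%) and ETS motifs in 16 (25%, against 12.9%), and 46 genes had at least 1 of these 3. E-boxes were in 6 (9.38%, against 8.91%), ROR elements in 3 (4.69%, against 2.70%), ERR sites in 2 (3.12%, against 0.377%) and a D-box in 1, Cox7b (1.56%, against 1.05%). A match is a run of letters, not a bound site. No match says only that the letters are not in this window.

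Of these genes, 6 cycled in WT livers. The 24 h rhythm was called (limma, adjusted p under 0.05 over 10932 genes) in 6 of 77 genes, or 7.79%, against 34.8% of all genes tested. Among genes with at least 50 FPKM the shares were 4 of 72 and 28.6%. The median amplitude, from mean to peak on the log2(FPKM + 1) scale, was 0.08 over the 77 genes and 0.14 over all genes tested. The called genes had no common time: Atp5s peaked at ZT7.11, Atp5sl at ZT10.4, the complex I core subunits Ndufs1 and Ndufv2 at ZT15.9 and ZT19.9, Cox7b at ZT22.6 and the accessory subunit Ndufc1 at ZT23.3.

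Atp5s had the smallest adjusted p in WT. Its 3 livers read 3.67, 3.79 and 4.52 FPKM at ZT4 and 2.39, 2.21 and 2.82 at ZT20, so the 2 times did not overlap. Its amplitude was 0.27 (SE 0.06, limma adjusted p 0.001). Cox7b, a small subunit of cytochrome c oxidase, read 291.5, 257.4 and 268.4 FPKM at ZT0 and 221, 217.7 and 195.2 at ZT12, again without overlap. The amplitude of Cox7b was 0.14 (SE 0.04, limma adjusted p 0.00881). For Ndufs1, Ndufv2 and Ndufc1 amplitudes were 0.11, 0.12 and 0.16, with limma adjusted p of 0.0195, 0.0352 and 0.0467. The call on Ndufs1 was lost without WT ZT4 liver 0 or 1 or WT ZT16 liver 0, that on Ndufv2 without any of 9 WT livers, and that on Ndufc1 in 26 of 54 omissions. Atp5sl and Cox7b were called in each of 11 alternative fits and 54 fits with a library left out. Atp5s was called in the 54 and in 10 alternatives, and was not tested in the other, a filter at 5 FPKM.

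Expressed as complexes, the WT means stayed within narrow bounds. The complex I mean ran from 7.34 at ZT4 to 7.53 at ZT0 (log2), complex IV from 8.27 at ZT16 to 8.60 at ZT0, and complex V from 8.34 at ZT4 to 8.52 at ZT0. Complex II had 7.78 at ZT4 and 7.94 at ZT16, and complex III 8.71 at ZT4 and 8.88 at ZT0. Their spans were like those of complexes I and V, while that of complex IV was wider. Complex IV includes the low gene Cox7a1, at 14.7 FPKM at ZT0 and 5.19 at ZT16. Its mean in WT ZT0 liver 0 was 8.81, against 8.58 and 8.43 in livers 1 and 2. The SD over 18 WT livers was 0.11 for complex I and 0.15 for complex IV.

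**Figure D3:**
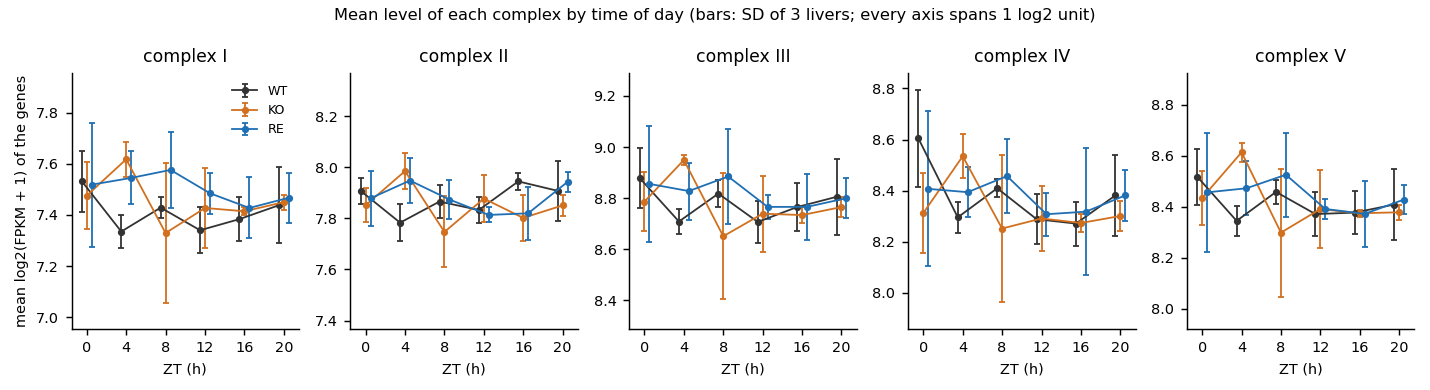
Mean log2(FPKM + 1) of the genes of each complex (y axis, spanning 1 log2 unit in every panel) against time of day (x axis, h), with points for the mean of 3 livers and bars for their SD. The 3 genotypes overlap at most times, but at ZT4 the KO mean lies above the WT mean in every panel, without overlap of the bars. The KO means are lowest at ZT8, which rests on KO ZT8 liver 1.

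KO livers had no called rhythm among the 77 genes. limma called 0 of 77 there (4 at an unadjusted p under 0.05), against 0.0366% of all genes tested. The smallest p values belonged to Atp5sl (amplitude 0.24, peak ZT3.34, limma adjusted p 0.166), the ATP synthase delta subunit Atp5d (0.17, ZT2.88, 0.322) and Ndufc1 (0.15, ZT0.704, 0.324). Without the 3 libraries that stood apart 2 of 77 genes were called, against 2.37% of all genes tested. They were Atp5sl (0.26, limma adjusted p 0.0366) and Atp5d (0.21, adjusted p 0.0244). Leaving out KO ZT8 liver 1 alone gave 1, Atp5sl, with an adjusted p of 0.0486. All 5 complexes were highest at ZT4 and lowest at ZT8 in KO, and the complex III mean ran from 8.65 to 8.95. At ZT4 every KO liver lay above every WT liver in each complex, with 7.543 to 7.675 against 7.271 to 7.4 for complex I. Single times were not tested between genotypes. The low at ZT8 rested on KO ZT8 liver 1. Without it the lowest time was ZT16 for each complex, with complex III at 8.73 there and at 8.79 at ZT8.

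In RE livers 15 of 77 genes cycled (19.5%), against 46.8% of all genes tested. Of the 15, 12 peaked between ZT0 and ZT6, where 29.7% of all rhythmic RE genes peaked. That share of early peaks was smaller under other settings: with libraries rescaled to a common sum 15 of 26 called genes peaked there and 11 between ZT18 and ZT24, and with the transcript-length score as a covariate 19 of 31 and 11. The 12 genes of the main fit came from every complex. Ndufa10, Ndufs7 and Ndufa4l2 were by symbol from complex I, and the flavoprotein Sdha and the anchor Sdhc from complex II. Uqcrc1 was from complex III and Cox6a1 from complex IV. Atp5a1, Atp5b, Atp5d, Atp5g3 and Atp5sl were by symbol from complex V. Atp5a1, Atp5b and Atp5d belong to F1, the catalytic part of ATP synthase. The other three were Ndufs1 (peak ZT20.8), Uqcrc2 (ZT18.2) and Atp5s (ZT9.84). The median amplitude stayed at 0.08 over the 77 genes, against 0.16 over all genes tested. Without the 3 libraries that stood apart 26 genes were called, 20 of them with peaks between ZT0 and ZT6. The share of all genes tested was 46.8% there too. Leaving out RE ZT0 liver 0 alone gave 23, and leaving out RE ZT4 liver 0 gave 9.

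Uqcrc1, a core protein of complex III (chr9:108936633-108949623, GENCODE M21), had the smallest adjusted p in RE. RE livers read 178.8, 208.6 and 216.8 FPKM at ZT0, 224.9, 184.1 and 223.7 at ZT4, 230.8, 223.9 and 192 at ZT8, 162.4, 195.9 and 159.3 at ZT12, 164.6, 143.5 and 118.8 at ZT16, and 154.5, 158.1 and 193 at ZT20. All livers at ZT0, ZT4 and ZT8 lay above all livers at ZT16. The amplitude was 0.29 (SE 0.05, peak ZT4.51, limma adjusted p 0.00024). In WT it was 0.03 (adjusted p 0.907) over values from 155 to 225.2 FPKM, and in KO 0.13 (peak ZT3.66, adjusted p 0.436).

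Cox6a1, a subunit of cytochrome c oxidase (chr5:115345642-115348981), read 765.2, 665.4 and 723 FPKM at ZT4 in RE and 556.9, 549.7 and 534.6 at ZT16. The groups did not overlap, while RE ZT0 ranged from 541.4 in liver 0 to 923.1 in liver 1. Its amplitude was 0.24 (SE 0.06, peak ZT5.18, limma adjusted p 0.00612). Atp5d, whose exons overlap those of Cbarp on the other strand, had an amplitude of 0.23 with the same peak (SE 0.06, adjusted p 0.00614). Ndufa4l2 had 0.43 (SE 0.10, peak ZT4.33, adjusted p 0.00176) at 0.539 to 4.24 FPKM, and its exons overlap Shmt2. Ndufs1 (0.12, adjusted p 0.00958), Atp5s (0.21, adjusted p 0.0096) and Uqcrc2 (0.11, adjusted p 0.0104) completed the 8 smallest with Atp5sl. Atp5sl, Uqcrc1, Cox6a1, Atp5d and Ndufs1 were called in each of 11 alternative fits and in each of 54 fits without a library. Ndufa4l2 was called in the 54 and in 10 alternatives, and was not tested under the filter at 5 FPKM. The call on Atp5s was lost without RE ZT8 liver 1 (adjusted p 0.0511).

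Differences in rhythm between genotypes were tested directly, and Atp5sl led both comparisons with WT. This complex I assembly factor (chr7:25619414-25625551) read 23.7, 21.6 and 21.2 FPKM at ZT8 and 26.2, 21.6 and 23.9 at ZT12 in WT, against 15.8, 17.8 and 16.4 at ZT4. KO livers read 22.7, 26.8 and 21.4 at ZT4 and 17.1, 15.7 and 18 at ZT12. RE livers read 21.2, 21 and 18.3 at ZT4 and 12.4, 16.2 and 13 at ZT12. Of ZT4 and ZT12, WT was thus higher at ZT12, and KO and RE were higher at ZT4. At neither time did WT overlap with KO or with RE. The lowest means came later, at 14.2 FPKM at ZT16 in KO and 13.6 at ZT20 in RE. Amplitudes were 0.23 in WT (SE 0.06, peak ZT10.4, limma adjusted p 0.00867), 0.24 in KO (adjusted p 0.166) and 0.30 in RE (peak ZT4.30, adjusted p 0.000694).

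The rhythm difference between KO and WT, the length of the difference vector of the cosine and sine terms, was called in 1 of 77 genes, against 9.06% of all genes tested. That gene was Atp5sl, at 0.38 (log2, SE 0.09, limma adjusted p 0.00889). Next were Cox7a1 (0.64, adjusted p 0.131) and Ndufv2 (0.12, adjusted p 0.264), neither called. Cox7a1 was called here without WT ZT0 liver 2 (adjusted p 0.0434).

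RE and WT differed in rhythm in 2 of 77 genes, against 14.1% of all genes tested: Atp5sl at 0.38 (SE 0.09, limma adjusted p 0.00652) and Uqcrc1 at 0.29 (SE 0.08, adjusted p 0.0238). Both comparisons use the same WT livers. The call on Uqcrc1 was lost without any of WT ZT4 liver 2, WT ZT16 liver 2, RE ZT4 liver 0 and RE ZT16 liver 2, with an adjusted p of up to 0.0663. Sdhc was next at 0.18 (adjusted p 0.055). Without the 3 libraries that stood apart 4 genes were called, against 17.1% of all genes tested. No gene of the 77 differed in rhythm between RE and KO (2 at an unadjusted p under 0.05, limma), against 3.07% of all genes tested. The smallest p there were those of Cox7a2l (0.21, adjusted p 0.148), Ndufa4l2 (0.38, 0.174) and Cox7a1 (0.51, 0.269).

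**Figure D4:**
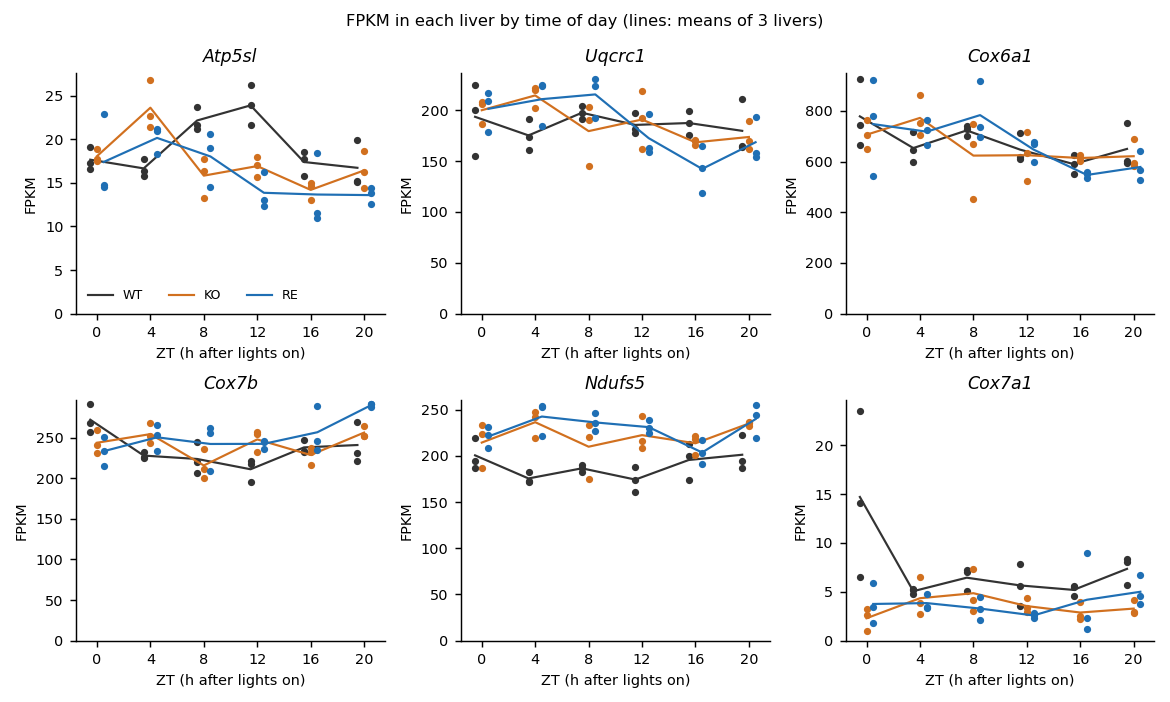
FPKM (y axis, from 0) of 6 genes in each liver against time of day (x axis, h after lights on), with points for livers and lines for means of 3, by genotype. Atp5sl is high at ZT12 in WT and at ZT4 in KO and RE, Uqcrc1 falls to its lowest value at ZT16 in RE, Ndufs5 lies higher in KO and RE, and Cox7a1 is highest in WT at ZT0.

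Levels, taken as means over the 6 times, differed between KO and WT in 15 of 77 genes (19.5%), against 42.3% of all genes tested. Of the 77, 11 were higher in KO (14.3%, against 22.1% of all) and 4 lower (5.19%, against 20.2%). The higher genes were 8 of complex I, the complex IV gene Cox7a2, Cox7a2l, known for supercomplex assembly, and Atp5a1. The lower ones were Cox7a1, Sdhd, Ndufb9 and Atp5k. Complex III had none. The median difference was 0.01 (log2) over the 77 genes and 0.00 over all genes tested. Without the 3 libraries that stood apart 23 genes were called (19 higher and 4 lower), against 45.5% of all genes tested.

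RE and WT differed in level in 27 of 77 genes (35.1%), against 45.9% of all genes tested. Here 24 were higher (31.2%, against 24.2% of all) and 3 lower (3.90%, against 21.7%): Cox7a1, Atp5sl and Sdhd. Complex I accounted for 15 of the higher genes, 4 of its 7 core subunits, with Ndufs3 and Ndufv2 among them, and 11 of its 30 other genes, with none lower. Complex V had 4 higher genes (Atp5a1, Atp5c1, Atp5f1 and Atp5l), complex IV 3 (Cox7a2, Cox7a2l and Cox7b) and complex III 2 (Uqcrc2 and the Rieske protein Uqcrfs1). The median difference was 0.05 over the 77 genes and 0.01 over all genes tested. Both comparisons rest on the same 18 WT livers. Markers of other cell types were summed per liver, without a test between genotypes. The summed Kupffer cell markers (5 in the table of 6 listed) had medians of 72.8 FPKM in WT (56 to 128.2), 60.7 in KO (35.4 to 128.7) and 45.1 in RE (26.3 to 115.4). Gut markers (6 of 6) had 130.6 (81.2 to 258.8), 79.7 (41.6 to 116.7) and 91.9 (20.5 to 153.9). Most of that sum was Fabp2, with medians of 126.8, 77.9 and 89 FPKM in WT, KO and RE. Red cell markers (5 of 5) had 1027.8 (450.2 to 4775.1), 958.9 (289.4 to 3884.5) and 689.8 (352.4 to 3198.8). In the same order, medians were 14.8, 13.8 and 13.7 FPKM for endothelial markers. They were 71.6, 78.8 and 71.4 for stellate cell and fibroblast markers, and 4.64, 5.17 and 4.83 for bile duct markers. White fat markers had 1.25, 0.0154 and 0.0215, lymphocyte markers 1.44, 1.38 and 0.778, and neutrophil markers 5.25, 6.15 and 4.01. Exocrine pancreas markers had 22.9 (16.7 to 32.4), 63.6 (29.9 to 87.4) and 72.6 (17.5 to 114), nearly all of it Cela1. The ranges overlapped, and the part of these cells in the level differences was not tested.

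These splits depended on scaling and on the transcript-length score. With each library rescaled to a common sum, 14 genes were higher and 10 lower in RE than in WT, and 17 higher and 5 lower in KO. With the score as a covariate, 20 were higher and 17 lower in RE, and 9 higher and 29 lower in KO. That score follows short transcripts, and most of the 77 genes are short themselves. Rescaling over only the genes above 0 in every library, which leaves out Alb, gave 18 higher and 6 lower in RE, and 24 higher and 4 lower in KO. All genes tested were called at 45.3% in RE and 40.9% in KO under the first rescaling. The covariate gave 49% and 44.7%, and the last rescaling 44.1% and 41.8%. Complex I had 10 higher and 4 lower genes in RE under the first rescaling and 13 and 7 under the covariate. In KO it had 11 and 2, and 6 and 12. The median RE difference of complexes II, III, IV and V changed from positive to negative under both. The genes that were called in each of 11 alternative fits and 54 fits without a library numbered 11 in KO (8 higher, 3 lower) and 17 in RE (14 higher, 3 lower).

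Ndufs5, an accessory subunit of complex I (chr4:123712710-123718202), had the smallest adjusted p in both comparisons. It ran from 160.7 to 222.4 FPKM in WT (median 187.2), from 175.1 to 247.2 in KO (median 222.5) and from 190.7 to 255.5 in RE (median 228.3). The ranges overlapped, and both the KO and the RE median lay above the highest WT liver. It was higher by 0.23 in KO (log2, SE 0.04, limma adjusted p 5.52e-06) and by 0.28 in RE (adjusted p 1.71e-07). Ndufv3, a subunit of the NADH-oxidising module, rose from 251.9 ± 26.6 FPKM in WT (SD, n = 18) to 304.8 ± 32 in KO and 315.4 ± 40 in RE. Its differences were 0.27 (adjusted p 7.52e-05) and 0.32 (adjusted p 6.01e-06).

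Ndufa12 averaged 140.8 ± 13.8 FPKM in WT (SD, n = 18). KO livers averaged 164.1 ± 17.9 and RE livers 169.7 ± 17.3. The differences were 0.22 in KO (limma adjusted p 0.00047) and 0.27 in RE (adjusted p 2.8e-05). Ndufs3, a core subunit of complex I, was higher by 0.17 in KO (adjusted p 0.00366) and 0.21 in RE (adjusted p 0.000428), and its exons overlap Kbtbd4 on the other strand. Ndufs4, Ndufv2 and Ndufb3 were higher in RE by 0.20, 0.18 and 0.27. Ndufb3 was not called in KO, where it differed by 0.10.

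In complex IV, Cox7a2 ran from 338.5 to 483.8 FPKM in WT (median 384.9), from 320.6 to 544.4 in KO (median 446.4) and from 376.1 to 593.5 in RE (median 466.7). The ranges overlapped, and the differences were 0.20 in KO (SE 0.06, limma adjusted p 0.00454) and 0.27 in RE (adjusted p 0.00019). Cox7a2l was higher by 0.22 in KO (SE 0.05, adjusted p 0.000391) and 0.24 in RE (adjusted p 0.000115). Cox6a1, Cox6b1 and Cox8a were called in neither comparison, with differences between -0.08 and 0.07. Of the c-ring genes, Atp5g1 differed by 0.13 in KO (adjusted p 0.069), and none of the 3 was called.

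Cox7a1, the heart and muscle isoform of the same subunit (chr7:30184144-30186078), showed the largest difference. It ran from 3.56 to 23.5 FPKM in WT (median 5.61), from 1.00 to 7.37 in KO (median 3.12) and from 1.22 to 8.99 in RE (median 3.38). The highest WT liver was at ZT0, where the 3 livers read 23.5, 14.1 and 6.53 FPKM. The WT mean at ZT20, 7.34 FPKM, lay above the lowest of these. The ranges of the genotypes overlapped. Cox7a1 was lower by 0.83 in KO (log2, SE 0.16, limma adjusted p 3.06e-05) and by 0.79 in RE (adjusted p 6.29e-05). With a pseudocount of 0.1 the RE difference was -0.95. WT ZT0 liver 0 also had the highest summed gut (258.8 FPKM), bile duct (28.2), lymphocyte (4.05) and red cell (4775.1) markers; without it the KO difference was -0.76. Their part in the result was not tested. Of 10 muscle and heart markers, all in the table and 1 at 0 throughout, the sum was 0.360 to 1.58 FPKM in WT, 0.461 to 1.58 in KO and 0.747 to 2.16 in RE. Most of that sum was Mylpf, with medians of 0.972, 0.734 and 0.895 FPKM in WT, KO and RE, while Ckm and Myh6 reached 0.0326 FPKM and 0. Of 3 brown fat markers, Ucp1 reached 0.909 FPKM and Cidea 0.706. The third, Elovl3, went the other way, with medians of 212.5, 589.4 and 836 FPKM in WT, KO and RE.

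Sdhd, a membrane anchor of complex II (chr9:50596357-50603812), was also lower. It ran from 221 to 285 FPKM in WT (median 269.7), 198.6 to 289 in KO (median 223.5) and 204.3 to 323.5 in RE (median 232.8). The differences were -0.19 in KO (SE 0.04, limma adjusted p 0.000509) and -0.14 in RE (adjusted p 0.00963). The other three subunits of complex II were not called in either comparison. Atp5sl was lower in RE by 0.24 (adjusted p 0.00106). Ndufb9 was lower in KO by 0.16 (adjusted p 0.00924), and Atp5k by 0.14 (adjusted p 0.0434).

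**Figure D5:**
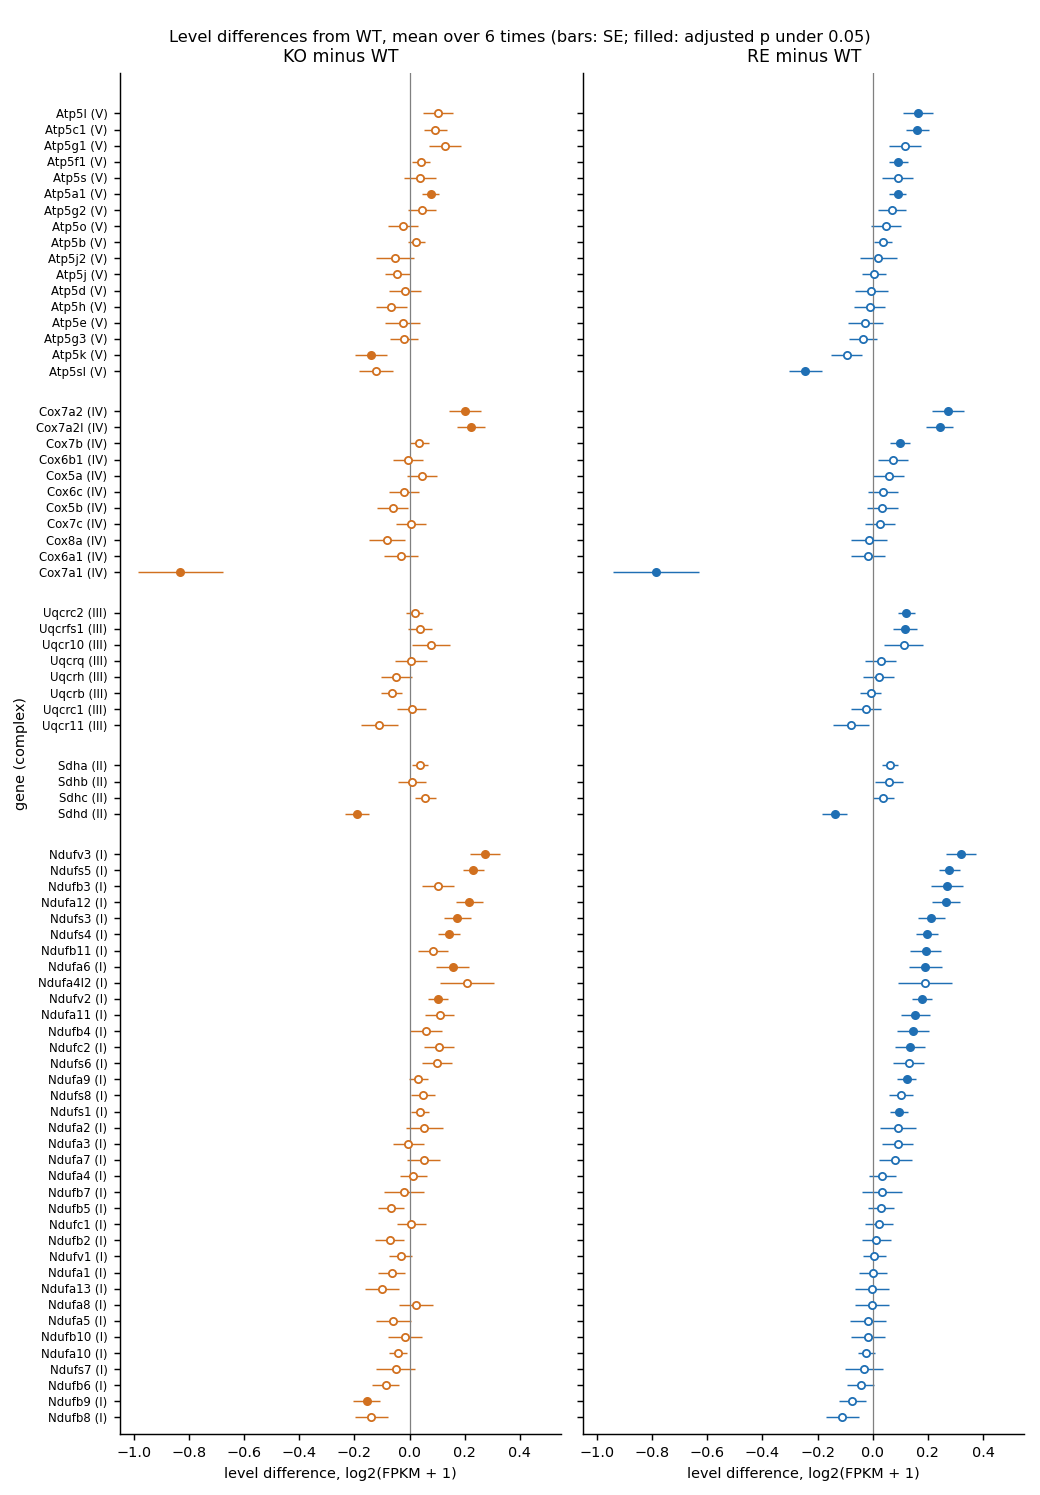
Level difference from WT (x axis, log2(FPKM + 1), mean over 6 times) of 76 of the 77 genes in KO (left) and RE (right), with bars for SE and filled points for an adjusted p under 0.05, by complex. Most filled points lie to the right, and Cox7a1 lies far to the left at -0.83 and -0.79; the share on each side depends on the scaling, as given in the text.

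Direct comparison of RE with KO gave no called level difference among the 77 genes (5 at an unadjusted p under 0.05, limma), against 0.192% of all genes tested. The smallest p were those of Uqcrc2 (0.10, adjusted p 0.134), Ndufb3 (0.17, 0.197) and Ndufa9 (0.09, 0.228). RE values were the higher in 69 of 77 genes, with a median of 0.05, and the median changed sign to -0.02 with libraries rescaled to a common sum.

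A 12 h component, with 3 points per cycle, was called in none of the 77 genes in WT, KO or RE (0, 2 and 3 at an unadjusted p under 0.05, limma). Over all genes tested the shares were 0.247%, 0% and 0%. The smallest adjusted p were 0.834 in WT, 0.943 in KO and 0.551 in RE.

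Other genes of the pathway were taken from lists made by function. Of 47 assembly factors tested, which build the complexes and insert their cofactors, 22 were higher and 4 lower in KO (46.8% and 8.51%, against 22.1% and 20.2% of all genes tested). In RE 26 were higher and 2 lower (55.3% and 4.26%, against 24.2% and 21.7%). The complex I factor Nubpl, which delivers iron-sulfur clusters, was higher by 0.42 in KO (SE 0.03, limma adjusted p 5.3e-13) and 0.50 in RE (adjusted p 2.17e-15). Ndufaf7, Ndufaf2 and Foxred1 were higher by 0.36, 0.36 and 0.24 in KO and 0.42, 0.36 and 0.31 in RE. Rhythms were called in 11 of the 47 in WT (23.4%, against 34.8% of all genes) and 19 in RE (40.4%, against 46.8%). Ndufaf4 cycled by 0.41 in both, with peaks at ZT13.8 in WT and ZT17 in RE. Sco2, a copper chaperone of complex IV, cycled by 0.59 around ZT2.40 in WT and 0.48 around ZT6.90 in RE. Coa6, also of copper delivery, cycled by 0.44 around ZT14.7 in WT and differed in rhythm by 0.54 in KO (adjusted p 0.000125) and 0.43 in RE (adjusted p 0.00225).

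Among 17 genes for electron carriers and ubiquinone synthesis, 8 cycled in WT (47.1%, against 34.8% of all genes) and 13 in RE (76.5%, against 46.8%). Adck3, an atypical kinase of ubiquinone synthesis, cycled by 0.97 around ZT23.7 in WT and by 0.62 around ZT3.78 in RE. Its level was higher by 1.33 in KO (SE 0.08, limma adjusted p 1.29e-16) and 1.08 in RE (adjusted p 6.88e-14). Cycs, cytochrome c itself, cycled by 0.24 around ZT19.3 in WT and by 0.24 around ZT20.1 in RE, with no called difference in level. In that list 8 genes were higher and 2 lower in KO (47.1% and 11.8%, against 22.1% and 20.2% of all), and 10 higher and 1 lower in RE (58.8% and 5.88%, against 24.2% and 21.7%). The electron transfer flavoprotein subunit Etfa was higher by 0.21 in KO and 0.27 in RE.

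Of 15 regulators of mitochondrial biogenesis, 3 were higher and 4 lower in KO, and 3 and 4 in RE. The 7 calls make 46.7% of the list, near the 42.3% and 45.9% of all genes tested. Ppargc1a, the coactivator PGC-1alpha, averaged 1.02 FPKM in WT, against 1.55 in KO and 1.48 in RE, and was higher by 0.32 (limma adjusted p 0.00231) and 0.27 (adjusted p 0.0084). Gabpa, the DNA-binding subunit of GABP, was lower by 0.23 in KO (adjusted p 0.000573) and 0.31 in RE (adjusted p 1.52e-05). Tfam, which packages mitochondrial DNA, was lower by 0.10 in KO (adjusted p 0.0054) and 0.08 in RE (adjusted p 0.0225). Nrf1 and Esrra were not called in level. Esrra cycled in WT by 0.40 around ZT13.2 (adjusted p 1.07e-05) and differed in rhythm by 0.44 in KO (adjusted p 0.00209).

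The 8 genes of ATP export and ATP synthase control had 3 higher and 2 lower in KO (62.5% called, against 42.3% of all genes) and 3 higher and 3 lower in RE (75%, against 45.9%). Slc25a5, an ADP/ATP carrier, was lower by 0.21 in KO and 0.15 in RE, while Atpif1, the inhibitor of ATP synthase, was higher by 0.50 and 0.40 (limma adjusted p 4.26e-06 and 0.000124). Ucp2 was lower by 0.58 and 0.85. Of 14 citric acid cycle genes, 5 cycled in WT (35.7%, against 34.8% of all genes) and 9 in RE (64.3%, against 46.8%). Cs, citrate synthase, was higher by 0.42 and 0.33. Of the subunits that the symbol rule misses, 5 were tested. Ndufab1 was higher by 0.14 in KO and 0.21 in RE, Cyc1 cycled in RE by 0.15 around ZT4.04, and Cox4i1, at 863.4 FPKM in WT and 863.9 in RE, was not called in any comparison.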

How the data were processed

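RNA of 54 liver samples was sequenced in 18 groups of 3. Reads were aligned to mm10 with TopHat, per the submitters' processing notes; for the TopHat version, the quantifier and its gene models, the entry is "not given in the sources used here". Values were deposited by the authors as FPKM, already scaled by transcript length and library. There are no counts, so depth is unknown, no counting error can be given, and precision rests on the spread between livers. Column numbers (0 to 2) differ from the replicate numbers in the titles, so a column stands for its group and for no numbered sample, and p-values measure the spread between these samples.

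Values were analysed as log2(FPKM + 1), which understates changes of low genes. The 10932 genes with a group mean of at least 1 FPKM were fitted with limma 3.58.1 in R 4.3.3 (18 group means, eBayes with trend, 36 residual degrees of freedom). Rhythms were moderated F tests of cosine and sine contrasts with a 24 h or 12 h period; level differences were two-sided. Benjamini-Hochberg adjustment covered every tested gene, with calls at an adjusted p below 0.05. The script was tested on simulated data. Named genes are the 5 highest per complex, up to 8 called members of smallest adjusted p per comparison (or the 3 smallest), isoform sets, the extremes of SD, the symbols nearest the minimum, and up to 4 genes per pathway list and comparison, with 8 genes always named (Ppargc1a, Nrf1, Gabpa, Tfam, Esrra, Cox4i1, Cyc1, Cycs). Some genes that the rule names are not reported here. Other called members appear by name where a count is broken down. Gene positions and transcript lengths are from GENCODE M21 (mm10; strand of counting not stated, so overlapping genes cannot be told apart) and promoters from RefSeq GRCm38.p6. Members and lists were chosen with earlier results of these data known. Alternatives were the pseudocount, filters, scalings, genotypes fitted alone, array weights, robust variances, any difference among times and each library left out; the length-score covariate, the omission of 3 libraries and the rescaling over genes above 0 throughout were chosen after seeing the data.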

Additional observations from a re-analysis of the deposited data

Results flagged for a closer look

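The direct tests of a difference in 24 h rhythm between genotypes passed in 3 cases among the 77 genes. Atp5sl differed between KO and WT by 0.38 (log2, SE 0.09, limma adjusted p 0.00889) and between RE and WT by 0.38 (SE 0.09, adjusted p 0.00652). Uqcrc1 differed between RE and WT by 0.29 (SE 0.08, adjusted p 0.0238). The comparisons share the WT livers.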

How the results depend on the processing

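All counts are of the 77 genes, and percentages in brackets are shares of all genes tested under the same setting. Rescaling libraries to a common sum gave 26 rhythms in RE (45.5%). It gave rhythm differences of RE from WT in 8 (15.1%) and from KO in 1 (4.55%), and 1 level difference between RE and KO (4.38%). Genotypes fitted alone gave 11 rhythms in WT (48.4%) and 6 in RE (28.4%). The median SD of the 77 genes within groups was 0.117 in WT and 0.178 in RE (log2). Rescaling over genes above 0 throughout, chosen after seeing the data, gave 26 rhythms in RE (45.1%). Its rhythm differences of RE were 9 from WT (15.3%) and 1 from KO (4.58%). Its level differences were 28 for KO from WT (41.8%) and 2 for RE from KO (4.94%). Array weights gave 17 rhythms in WT (57.3%), 4 in KO (7.54%) and 33 in RE (54.5%). Their rhythm differences from WT were 4 for KO (24.4%) and 12 for RE (29.6%). Their level differences were 25 for KO from WT (53.4%) and 3 for RE from KO (5.26%). The length-score covariate, also chosen after seeing the data, gave 20 rhythms in WT (37.8%) and 31 in RE (47.2%). Its rhythm differences were 2 for KO from WT (12.3%), 10 for RE from WT (20.9%) and 1 for RE from KO (5.53%). It gave 38 level differences of KO from WT (44.7%). Omitting the 3 libraries that stood apart, chosen likewise, gave 2 rhythms in KO (2.37%) and 26 in RE (46.8%). It gave 4 rhythm differences of RE from WT (17.1%) and 23 level differences of KO from WT (45.5%). With each library left out in turn, rhythms numbered 3 to 7 in WT, 0 to 1 in KO and 9 to 23 in RE, and rhythm differences from WT 1 to 2 (KO) and 1 to 4 (RE); level differences numbered 12 to 21 (KO from WT) and 25 to 31 (RE from WT). The causes of these shifts were not tested. Of 590 values of named genes under the other alternatives, 571 kept direction and side of the threshold, 5 lost the call and 14 gained one. These genes were named for the smallest p of the main fit, and results without a call there count as kept while they stay so. The tally thus does not measure how the whole set holds. A replicate block could not be fitted. No paired analysis was possible because the column numbers differ from the replicate numbers in the titles, so columns were matched to groups only. Without counts, sampling error cannot be told apart from spread between livers.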
